A study of Arabidopsis thaliana with 14 samples.

Results

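Cellularized endosperm was set against general seed coat, the filial and maternal tissues that lie side by side in the *Arabidopsis thaliana* seed away from its chalazal end. The members are 4 of the 14 arrays of the study, chosen by their titles alone: 2 of laser-captured cellularized endosperm and 2 of laser-captured general seed coat. All plants were of the Ws-0 accession, with no transgene or treatment named, and the seeds held linear-cotyledon embryos of 175 ± 11 µm. Siliques of 1.6 to 1.9 cm came from plants 38 to 46 days old, grown at 20 °C in continuous light, and were fixed with an ethanol and acetic acid mixture, set in paraffin and sectioned before the laser cut out each tissue. The RNA input per capture was 2 to 5 ng, which was amplified and hybridised to the Affymetrix ATH1 array, which carries 22810 probe sets. The other arrays, 2 each, held embryo proper, micropylar endosperm, chalazal endosperm, chalazal seed coat and whole seeds by their titles. The series' design text names micropylar endosperm in 2 places and chalazal endosperm in none. On the arrays titled chalazal endosperm the chalazal endosperm markers summed to 55172 and 57293, and on those titled micropylar endosperm to 190.3 and 87.1. The marker lists were chosen with earlier results of these data known, so these sums are no independent check of the titles. Replicates are titled as biological, but the labels do not say how many seeds or plants each holds. The p-values measure the spread between replicate samples, pooled over the groups of all 14 arrays and not taken from these 4 alone.

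The endosperm grows from the fertilised central cell, first as a syncytium and then as walled cells, and in *Arabidopsis* the embryo uses up most of it before the seed matures. The seed coat grows from the integuments of the ovule and is wholly maternal. Its innermost layer makes proanthocyanidins, the tannins that brown the seed, and its outermost cells fill with pectin-rich mucilage and then build a thick inner wall. No symplastic bridge joins the seed coat to the endosperm, so sugars pass from the maternal to the filial side through membrane transporters.

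Values are array signals in arbitrary units, scaled so that the trimmed mean is 500 on each array. The medians were 106.6 and 123.7 on the endosperm arrays and 146.4 and 163.4 on the seed coat arrays. The ratio of the 3′ to the 5′ probe set of the GAPDH control, a sign of how complete the amplified RNA is, was 7.16 and 5.78 in endosperm and 5.33 and 7.73 in seed coat, so the tissues overlapped. The same ratio for ubiquitin was 10.25 and 8.88 in endosperm and 10.13 and 10.39 in seed coat. For actin it was 19.51 and 11.97 in endosperm and 10.56 and 12.31 in seed coat, so the first endosperm array stood apart. Log2 signals of replicates correlated over probe sets with r = 0.905 in endosperm and 0.883 in seed coat. Between the tissues r lay between 0.737 and 0.775, while cellularized and micropylar endosperm gave 0.86 to 0.866 and general and chalazal seed coat 0.768 to 0.795. These are descriptions over probe sets, which are not independent replicates.

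The markers went with both labels. Their lists were chosen with earlier results of these data known, so this is no independent check of the labels. Of the 5 seed coat markers that could be tested, all 5 were higher in the seed coat, and summed over 6 markers on the array the signal was 56656 and 37946 in seed coat against 1365 and 1590 in endosperm. Of 3 tested peripheral endosperm markers, 2 were higher in the endosperm: SWEET11, a sucrose exporter, and EEL, a bZIP transcription factor. The third, SWEET15 (also SAG29), gave 1308 and 1633 in endosperm and 1452 and 2872 in seed coat and was not called (adjusted p = 0.545). The markers of chalazal seed coat and vasculature summed to 38.5 and 465.6 on the seed coat arrays, against 14823 and 17467 in captured chalazal seed coat. Most of the second value came from SWEET10 at 308.7 and CLE41 at 124.8, both low on the first array at 13.4 and 10.8. Markers of chalazal endosperm summed to 562.9 and 224.5 in endosperm and 1477 and 373.2 in seed coat, against 55172 and 57293 in captured chalazal endosperm. Embryo markers, 6 in number, summed to 1531 and 1835 in endosperm, 439.6 and 382.7 in seed coat and 5420 and 5778 in embryo. They also summed to 2707 and 2553 in chalazal seed coat, so their signal is not particular to embryo. Within that list LHW and PHV were higher in endosperm, by 2.41 and 2.60 log2 units, and YAB3, YAB5, BBM and JKD were not called. PHV was not called without the second endosperm array (adjusted p = 0.0558) or the second seed coat array (0.0851). Micropylar endosperm markers summed to 865.9 and 682.6 in endosperm and 485.7 and 572 in seed coat, and SDT was the 1 of 5 called. The part of these other markers in the results was not tested.

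Differences between the tissues are given on the log2(signal + 16) scale, where 1 unit is 2-fold, from a limma fit to all 14 arrays. A probe set was called when its Benjamini-Hochberg adjusted p was below 0.05 and its difference at least 2-fold. Of 15951 tested probe sets, 3013 were called (18.9%), with 1324 higher in cellularized endosperm (8.3%) and 1689 higher in general seed coat (10.6%). Every list count below stands beside these shares, and the lists were chosen with earlier results of these data known. The tissues were unlike in the size of their differences: 454 probe sets were at least 16-fold higher in the seed coat and 85 at least 16-fold higher in the endosperm. This order held under every alternative fit, with 272 to 634 probe sets in the seed coat direction and 43 to 141 in the endosperm direction. Fewer cells of a type and less RNA per cell cannot be told apart in such captured tissue.

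The split of calls moved with the scaling. The median difference over tested probe sets was -0.03 as deposited and 0.36 when the arrays were given equal medians, which turned the calls to 2200 higher in endosperm and 1271 higher in seed coat, or 63.4% in the endosperm direction instead of 43.9%. Quantile normalization shifted the median to 0.13 and gave 1361 and 1475 calls, or 48%. Leaving out the first endosperm array gave 1913 calls in all (737 higher in endosperm) and leaving out the second seed coat array 1840 (769 and 1071 by direction). Without the second endosperm array 827 were higher in endosperm, and without the first seed coat array 1154.

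**Figure D1:**
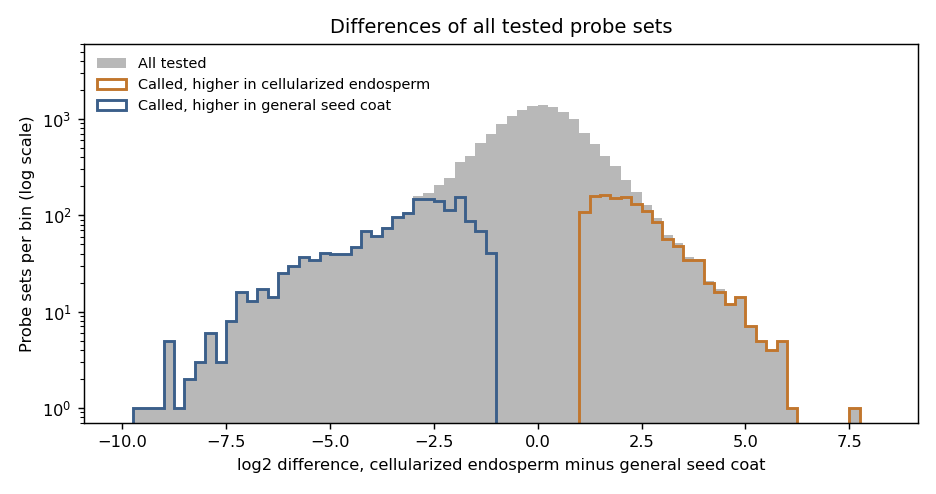
Histogram of the log2 difference, cellularized endosperm minus general seed coat, over the 15951 tested probe sets (grey), with the 1324 called higher in endosperm (orange outline) and the 1689 called higher in seed coat (blue outline). The y axis is logarithmic. The seed coat side reaches past -9, while nearly all of the endosperm side ends near 6.

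Among probe sets called with a mean of at least 1000 in their higher tissue, the other tissue was seldom silent on the endosperm-high side. For the 950 such probe sets higher in endosperm, the seed coat signal was 26.5% of the endosperm signal at the median (quartiles 16.1% and 36.9%), and 4 had a seed coat mean below 16. For the 928 higher in seed coat, the endosperm signal was 9.05% of the seed coat signal (quartiles 2.24% and 24.9%), and 62 had an endosperm mean below 16. The peripheral endosperm markers summed to 2310 and 4268 on the seed coat arrays and 16978 and 23386 on the endosperm arrays, and most of the seed coat sums was the uncalled SWEET15. The part of carry-over between captures was not tested.

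The 3 tested genes of mucilage and the seed coat wall were far higher in seed coat than in endosperm. TBL38, of a family whose members acetylate or deacetylate wall polysaccharides, had the largest difference of any named gene in either direction. Its signals were 32956 and 22412 in seed coat and 55.9 and 12.6 in endosperm, a difference of 9.23 ± 0.66 (SE) in favour of the seed coat (adjusted p = 2.91e-08). Every seed coat value was far above both endosperm values, and without the first or the second endosperm array the difference was 9.9 or 8.56. ARA12, the subtilisin-like protease SBT1.7 that mucilage release needs, gave 23634 and 24639 in seed coat against 301.2 and 354.3 in endosperm, a difference of 6.14 ± 0.30 (adjusted p = 7.03e-10). Its standard error was the smallest of the 15 named genes furthest toward the seed coat. PER36, a peroxidase that loosens the outer wall of mucilage cells, gave 13310 and 1907 in seed coat and 24.7 and 64.9 in endosperm. Its difference of 6.46 ± 0.79 (adjusted p = 1.08e-05) became 5.07 without the first seed coat array and 7.86 without the second. These are all 3 of the 25 listed genes of mucilage and seed coat wall that could be tested. Of all tested probe sets, 10.6% were higher in the seed coat.

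In the flavonoid pathway, 5 of 7 tested genes were higher in the seed coat and none in the endosperm. Over all tested probe sets the shares were 10.6% and 8.3%. The list's median was -5.70 against -0.03 over all tested probe sets. DFR, dihydroflavonol reductase, gave 7102 and 5346 in seed coat and 71.3 and 145.1 in endosperm, a difference of 5.70 ± 0.43 (adjusted p = 6.52e-08). BAN, the anthocyanidin reductase that commits the pathway to proanthocyanidins, gave 1334 and 1839 against 5.67 and 23.3, a difference of 5.76 ± 0.60 (adjusted p = 1.94e-06). BAN was at the low end of the scale on both endosperm arrays. CHIL, a chalcone isomerase-like helper of the first committed step, gave 2436 and 853.6 in seed coat and 232.1 and 99.4 in endosperm (difference 3.11 ± 0.60, adjusted p = 0.00107, and 2.36 without the first seed coat array).

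The glycosyltransferases of flavonols divided. UGT78D1, which adds rhamnose to flavonols, gave 30256 and 29344 in seed coat, but 2855 on the first endosperm array and 25.4 on the second. Its difference of 6.43 ± 1.11 (adjusted p = 0.000391) was 9.49 without the first endosperm array and 3.38 without the second, and it was called in both cases. Its mean in captured embryo was 11068, between its means in cellularized endosperm and general seed coat. UGT73B1, another flavonoid glucosyltransferase, gave 6231 and 6533 in seed coat and 168 and 14.5 in endosperm, a difference of 6.42 ± 0.72 (adjusted p = 5.2e-06) that was 7.71 or 5.12 without the first or second endosperm array. Its mean in embryo was 57.1, in the range of its endosperm arrays. UGT78D2, which adds glucose to flavonols and anthocyanidins, gave 373.1 and 465.4 in endosperm and 271.6 and 302.2 in seed coat and was not called (adjusted p = 0.528). UGT80B1, a sterol glucosyltransferase that seed coat flavonoid deposition depends on, was not called either, at 333.1 and 513.5 against 176.9 and 210.2 (adjusted p = 0.204). No flavonoid regulator of the list had a probe set with a usable name.

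Both called genes of the jasmonate list were higher in the seed coat, and 3 of 5 tested members were not called. The list holds 36 genes, so most could not be tested. Of all tested probe sets, 10.6% were higher in the seed coat and 8.3% in the endosperm. JMT, which makes methyl jasmonate, gave 10488 and 5940 in seed coat and 15.4 and 110 in endosperm, a difference of 6.97 ± 0.66 (adjusted p = 7.32e-07) that was 5.97 or 7.98 without the first or second endosperm array. THI2.1, an antimicrobial thionin that jasmonate induces in leaves, gave 9836 and 2580 against 22.6 and 5.35 (7.46 ± 0.84, adjusted p = 5.23e-06). Without the first seed coat array the THI2.1 difference was 6.5, and without the second 8.42. The transcription factor MYC3 gave 1914 and 1910 in endosperm and 666.6 and 1382 in seed coat and missed the threshold (adjusted p = 0.266). GILT, a lysosomal-type thiol reductase, gave 58842 and 44267 in seed coat against 89.2 and 457.4 in endosperm. Its difference was 7.84 ± 0.79 (adjusted p = 1.52e-06), and 6.75 or 8.92 without the first or second endosperm array.

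Other regulators among the 15 named genes furthest toward the seed coat were near the bottom of the scale in endosperm. LSH5, of the ALOG family of growth regulators, gave 2065 and 1928 in seed coat and 2.68 and 6.36 in endosperm (6.62 ± 0.60, adjusted p = 4.98e-07). SIM, the SIAMESE inhibitor of cyclin-dependent kinases that brings on endoreduplication, gave 2773 and 3498 against 54.9 and 10.4 (6.18 ± 0.86, adjusted p = 4.28e-05). BRH1, a RING finger protein whose transcript responds to brassinosteroid, gave 2644 and 1389 against 2.5 and 27.4 (6.09 ± 0.65, adjusted p = 2.88e-06). GH3.9, an amido synthetase of the auxin-conjugating GH3 family, gave 489.5 and 3612 in seed coat and 2.52 and 5.94 in endosperm (6.07 ± 0.79, adjusted p = 2.23e-05). Leaving out the first or second endosperm array changed SIM to 6.89 or 5.47 and BRH1 to 5.48 or 6.71. The GH3.9 seed coat arrays differed widely, and its difference was 4.65 without the second of them and 7.49 without the first. Of the 15, 5 had an endosperm mean below 16, so their size rests on the added constant: the log2 difference of LSH5, endosperm minus seed coat, was -8.58 with a constant of 1 and -4.91 with 64.

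**Figure D2:**
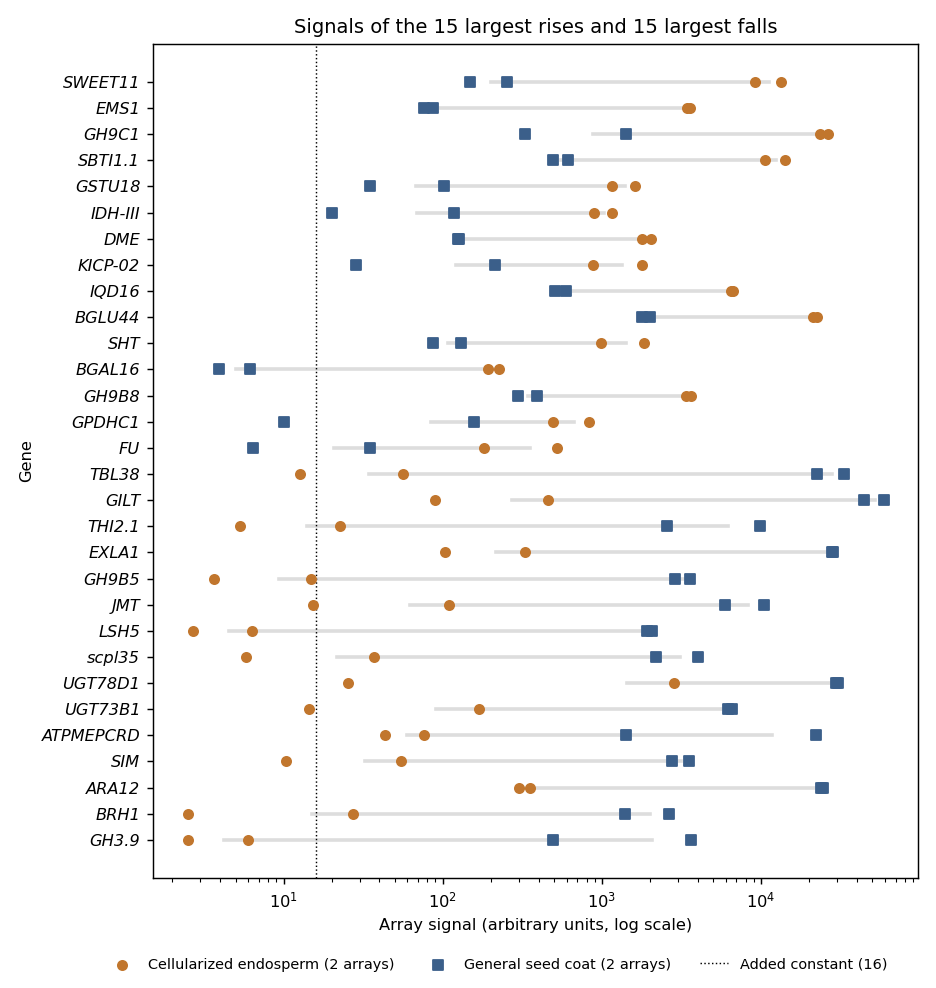
Signals on the 4 arrays (log axis) for the 15 named genes furthest toward the endosperm (top) and the 15 furthest toward the seed coat (bottom). Orange circles are the 2 endosperm arrays, blue squares the 2 seed coat arrays, grey lines join the means, and the dotted line marks the added constant of 16. Circles and squares do not overlap for any of the 30 genes, which the naming rule required, and the gaps between replicates are wide for UGT78D1, ATPMEPCRD and GH3.9.

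Wall-modifying enzymes were split between the tissues by family member. Of 17 tested expansins, xyloglucan enzymes, polygalacturonases and family 9 endoglucanases, 3 were higher in the endosperm, 4 in the seed coat and 10 not called. The list median was -0.31, and 8.3% and 10.6% of all tested probe sets were higher in endosperm and seed coat. On the endosperm side were only glycosyl hydrolase family 9 genes, which encode cellulose-cutting endoglucanases. GH9C1 gave 23282 and 26174 in endosperm and 1419 and 328.6 in seed coat, a difference of 5.13 ± 0.73 (adjusted p = 6.07e-05). Without the first seed coat array it was 6.16 and without the second 4.11. GH9B8 gave 3374 and 3634 against 388.8 and 295.8 (3.31 ± 0.58, adjusted p = 0.000512). GH9C2 was lower, at 401 and 549.1 against 88.7 and 114.6 (2.05 ± 0.60, adjusted p = 0.0217), and its call ended without any 1 of the 4 arrays, with adjusted p from 0.0601 to 0.125.

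The seed coat had its own endoglucanases and expansins. GH9B5 gave 3574 and 2873 in seed coat and 3.67 and 14.9 in endosperm, a difference of 7.03 ± 0.67 (adjusted p = 8.72e-07). GH9B7 gave 4643 and 5499 against 639.9 and 725 (2.86 ± 0.44, adjusted p = 0.000122). EXLA1, an expansin-like protein, gave 28305 and 28063 in seed coat and 103.1 and 330.1 in endosperm (7.12 ± 0.42, adjusted p = 5.24e-09), and 6.35 or 7.89 without the first or second endosperm array. The alpha-expansin EXPA20 gave 223.5 and 289.5 against 16.2 and 24.6 (2.90 ± 0.65, adjusted p = 0.0039). ATPMEPCRD, a pectin methylesterase outside that list, gave 1421 and 21982 in seed coat and 76.3 and 43.4 in endosperm. Its difference of 6.25 ± 0.94 (adjusted p = 0.000101) was 8.21 without the first seed coat array and 4.28 without the second.

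The endosperm side was led by a sugar exporter and a receptor. SWEET11, which passes sucrose across the plasma membrane, gave 9126 and 13294 in endosperm and 148 and 251.6 in seed coat, a difference of 5.72 ± 0.65 (adjusted p = 5.82e-06). EMS1, a leucine-rich repeat receptor kinase known for specifying the tapetum of the anther, gave 3404 and 3596 against 76.6 and 86.7 (5.17 ± 0.70, adjusted p = 3.2e-05). Replicates of both lay close together, and leaving out any 1 of the 4 arrays kept SWEET11 between 5.37 and 6.07 and EMS1 between 5.1 and 5.25. SBTI1.1, a subtilisin-like protease, gave 10541 and 14082 in endosperm against 615.5 and 491.1 (4.43 ± 0.40, adjusted p = 5.06e-07). BGLU44, a beta-glucosidase, gave 21035 and 22325 against 1774 and 2006 (3.51 ± 0.41, adjusted p = 6.69e-06).

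Several enzymes of small metabolites followed. GSTU18, a glutathione transferase, gave 1158 and 1614 in endosperm and 101.8 and 34.9 in seed coat (4.16 ± 0.58, adjusted p = 4.36e-05). IDH-III, a subunit of the mitochondrial isocitrate dehydrogenase, gave 1153 and 895 in endosperm and a seed coat mean of 68.7 ± 68.7 (SD, n = 2), with both seed coat arrays below both endosperm arrays (3.89 ± 0.69, adjusted p = 0.000525 in limma). Leaving out the first or the second seed coat array changed GSTU18 to 4.77 or 3.55 and IDH-III to 4.83 or 2.95. SHT, which joins hydroxycinnamic acids to spermidine, gave 1833 and 987.6 in endosperm against 129.4 and 86.5 (3.48 ± 0.69, adjusted p = 0.00147). SDT, which makes the disinapoyl form of the same amine, gave 320.2 and 111.4 against 8.3 and 7.39 (3.12 ± 0.81, adjusted p = 0.0102). Both SDT seed coat values lie below the added constant, and the difference was 4.43 with a constant of 1 and 1.85 with 64. Its call ended without the first endosperm array (2.42, adjusted p = 0.129) and without the second seed coat array (3.09, adjusted p = 0.0549). The shikimate transferase HCT and the peroxidase PRX52, the other tested members of the phenolamide and laccase list, were not called.

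The remaining endosperm genes among the 15 included parts of the cytoskeleton. KICP-02, a kinesin, gave 1797 and 875.1 in endosperm and 213.3 and 28.5 in seed coat (3.65 ± 0.73, adjusted p = 0.00144), and 4.83 or 2.47 without the first or second seed coat array. IQD16, a calmodulin-binding protein of a family that sits on microtubules, gave 6681 and 6488 against 509.2 and 597.1 (3.54 ± 0.64, adjusted p = 0.000644). FU, a Fused-type kinase known from cytokinesis in pollen, gave 182.5 and 519.5 against 35.1 and 6.43 (3.27 ± 0.90, adjusted p = 0.0153). BGAL16, a beta-galactosidase, gave 225.3 and 193.7 against 3.91 and 6.19 (3.42 ± 0.86, adjusted p = 0.0088). GPDHC1, a cytosolic glycerol-3-phosphate dehydrogenase, gave 490.7 and 835.2 against 157.7 and 10.1 (3.29 ± 0.77, adjusted p = 0.00501). These last 3 were the least secure. FU was not called without the second endosperm array (adjusted p = 0.148) or the second seed coat array (0.134), GPDHC1 without the same arrays (0.056 and 0.111), and BGAL16 without the first endosperm array (0.0619). Moving the constant from 1 to 64 took BGAL16 from 5.14 to 1.98.

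Genes of cell division and replication were higher in the endosperm in 6 of 8 cases and in the seed coat in none, with a median of 2.19. Among all tested probe sets 8.3% were higher in the endosperm and 10.6% in the seed coat. The mitosis-specific chromosomal protein 3xHMG-box2 led, at 9109 and 14771 in endosperm and 1676 and 971.7 in seed coat (95% confidence interval of the difference 2.24 to 4.09, adjusted p = 4.36e-05). PRL, the PROLIFERA subunit of the replication-licensing MCM complex, gave 1312 and 1929 against 312.2 and 220.7 (2.53 ± 0.48, adjusted p = 0.00105). Both calls held whichever array was left out. The 3 Aurora kinases, which act on the spindle and the chromosomes, had differences of 1.61 for AUR1, 2.37 for AUR2 and 2.1 for AUR3. AUR2 gave 2317 and 2324 in endosperm and 349.7 and 544.6 in seed coat (adjusted p = 0.01). The centromeric histone CENH3 (HTR12) gave 448.1 and 219.4 against 232.2 and 2.75, and the checkpoint gene BUB3.1 gave 1857 and 2425 against 1050 and 617.9. Neither was called (adjusted p = 0.147 and 0.0963).

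The count for this list was sensitive to single arrays. It was 4 without the first endosperm array, 2 without the second, 5 without the first seed coat array and 3 without the second. The calls of 3xHMG-box1 (adjusted p from 0.0899 to 0.164), AUR1 (up to 0.152), AUR2 (up to 0.0793) and AUR3 (up to 0.244) were those lost, and their differences stayed between 1.07 and 2.68. With a constant of 1 the count was 3, and with equal medians 7. Embryo was the highest of the 6 captured compartments for AUR1, PRL and both 3xHMG-box genes, while AUR2 and AUR3 were highest in cellularized endosperm.

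All 3 tested genes of the chromatin and DNA methylation list were higher in the endosperm, where 8.3% of all tested probe sets were. DME was counted there by its probe set of smallest difference. Genes whose symbol starts with CHR, CHR23 among them, did not share 1 direction. Of 7 tested, 2 were higher in the endosperm, and chr31 was higher in the seed coat (log2 difference -2.91, adjusted p = 0.0137). DME, the DNA glycosylase that removes methylcytosine in the central cell and sets maternal imprinting, has 3 probe sets. The furthest apart gave 1796 and 2027 in endosperm and 123.8 and 125.6 in seed coat (3.77 ± 0.49, adjusted p = 2.34e-05). The others differed by 1.90 (adjusted p = 0.01) and 1.39 (adjusted p = 0.0489), so the probe sets shared a direction and disagreed in size. The smallest, the one that the list count uses, was not called without either endosperm array or without the second seed coat array (0.81). Its call was kept in 6 alternative runs and lost in 10, so the list count of 3 is not secure. CHR23, a remodelling ATPase, gave 1430 and 994.4 against 203.4 and 143.9 (2.69 ± 0.43, adjusted p = 0.000188). SWI3A, a core subunit of such remodellers, gave 572.8 and 302.9 against 52.5 and 42 (2.78 ± 0.52, adjusted p = 0.000874).

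**Figure D3:**
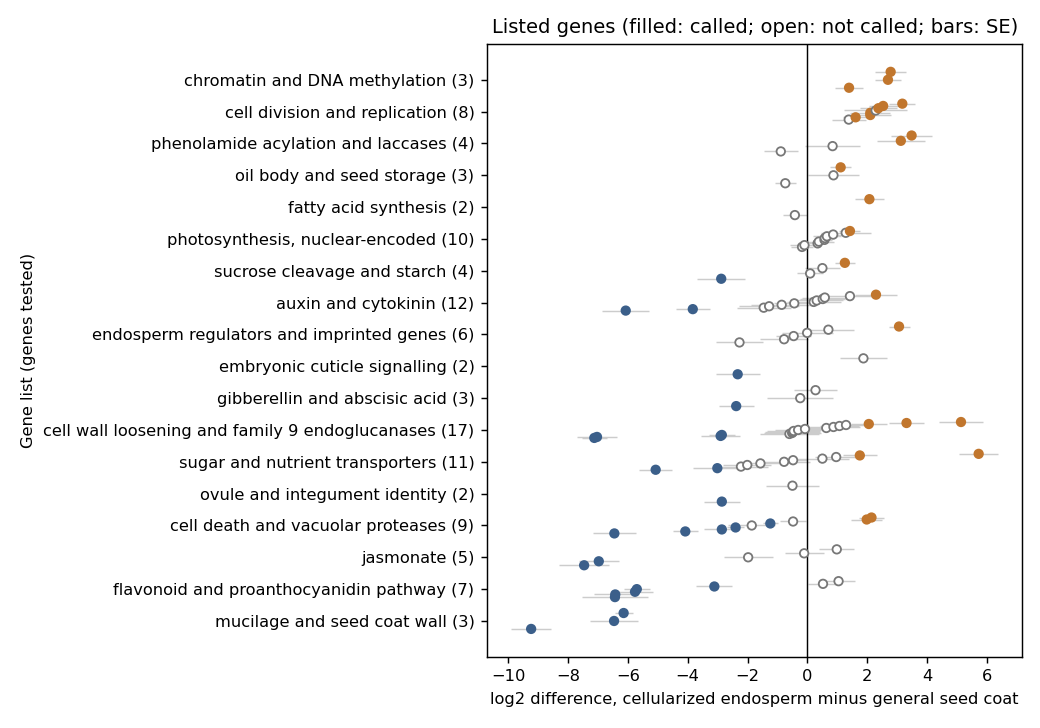
Log2 differences, cellularized endosperm minus general seed coat, of the tested genes in each list of at least 2, with lists ordered by median and the number tested in brackets. Filled circles were called (orange, higher in endosperm; blue, higher in seed coat), open circles were not, and bars show the standard error. Chromatin and cell division lie to the right, and flavonoid, jasmonate and mucilage genes reach furthest left.

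Of 11 tested sugar and nutrient transporters, 2 were higher in the endosperm and 2 in the seed coat. The shares over all tested probe sets were 8.3% and 10.6%. Besides SWEET11, GTR1, a transporter of glucosinolates, was higher in the endosperm at 430.7 and 1015 against 160.2 and 213.5 (1.75 ± 0.57, adjusted p = 0.0384). That call rested on 3 arrays: it ended without the second endosperm array (adjusted p = 0.298) and without the first or second seed coat array (0.157 and 0.0899). ZIP6, of the zinc and iron transporter family, gave 3029 and 2847 in seed coat and 62.8 and 82.3 in endosperm, a difference of 5.07 ± 0.55 (adjusted p = 3.43e-06). SWEET1, a glucose carrier, gave 392.9 and 1294 in seed coat against 122 and 44.1 (3.01 ± 0.81, adjusted p = 0.0128), and was not called without the second endosperm array (adjusted p = 0.118) or the second seed coat array (0.173). SWEET10 was called only without the first seed coat array (3.95, adjusted p = 0.00454); the second is the array with 308.7 for this chalazal seed coat marker. SWEET7 behaved alike (2.32, adjusted p = 0.0293).

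Among 10 nuclear-encoded photosynthesis genes 1 was called, where 18.9% of all tested probe sets were, and the list median was 0.58. This was PRK, the phosphoribulokinase of the Calvin cycle, at 12518 and 11274 in endosperm and 4047 and 4835 in seed coat (1.42 ± 0.35, adjusted p = 0.00793). It was not called without the first endosperm array (adjusted p = 0.0644) or the first seed coat array (0.0548), and equal medians made the count 3. LHCB4.1, an antenna protein, gave 6132 and 5489 against 4586 and 4588 (0.34 ± 0.28, adjusted p = 0.46). FATA, a thioesterase that ends plastid fatty acid synthesis, gave 5982 and 6163 in endosperm and 1913 and 1077 in seed coat (2.07 ± 0.49, adjusted p = 0.00604, and 0.0868 without the second seed coat array). Its sister FATB gave 1098 and 1667 against 2230 and 1474 (adjusted p = 0.508). OLEO3, an oil body protein, gave 12279 and 10358 against 4016 and 6795 (1.11 ± 0.36, adjusted p = 0.0371), with adjusted p from 0.0874 to 0.273 without either endosperm array or the first seed coat array.

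Of 32 listed genes of sucrose cleavage and starch, 4 could be tested. Of these, 1 was higher in the endosperm, 1 in the seed coat and 2 were not called. The shares over all tested probe sets were 8.3% and 10.6%, so these few genes show no direction for starch. The branching enzyme SBE2.2 gave 3761 and 4740 in endosperm and 1820 and 1721 in seed coat (1.25 ± 0.33, adjusted p = 0.0124). APL3, a large subunit of the enzyme that makes ADP-glucose, gave 196 and 292.5 in seed coat against 2.38 and 49.4 (2.88 ± 0.81, adjusted p = 0.0166). SBE2.2 was not called without the second endosperm array (adjusted p = 0.0999) or the second seed coat array (0.066), and APL3 without the first endosperm array (0.196) or the second seed coat array (0.111). DPE1 and AMY1, which act on starch and its breakdown products, were not called.

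Proteases of vacuoles and cell death favoured the seed coat in 5 of 9 cases and the endosperm in 2. All tested probe sets did so in 10.6% and 8.3% of cases. DELTA-VPE, the vacuolar processing enzyme that drives the death of inner seed coat layers, gave 11273 and 4126 in seed coat and 938.9 and 915.6 in endosperm. Its difference of 2.86 ± 0.60 (adjusted p = 0.00213) was 2.13 without the first seed coat array and 3.58 without the second. GAMMA-VPE, of vegetative vacuoles, gave 16255 and 21003 against 2783 and 4365 (2.40 ± 0.29, adjusted p = 1.07e-05). ALPHA-VPE ran the other way, at 1576 and 1438 in endosperm and 263.3 and 518 in seed coat (1.98 ± 0.51, adjusted p = 0.00949), and was not called without the first endosperm array (adjusted p = 0.0651) or the first seed coat array (0.0985). BETA-VPE, which processes storage proteins, was not called (adjusted p = 0.509). Of the serine carboxypeptidase-like enzymes in that list, scpl35 gave 3984 and 2194 in seed coat against 37.2 and 5.84 (6.45 ± 0.71, adjusted p = 3.96e-06, and 7.09 or 5.8 without the first or second endosperm array). Further, scpl20 gave 12923 and 8879 against 509.6 and 752 (4.08 ± 0.41, adjusted p = 1.42e-06), while scpl48 was an endosperm gene at 20068 and 28265 against 5368 and 5406 (2.14 ± 0.41, adjusted p = 0.00106). The aspartic protease APA1 was higher in the seed coat by 1.24 (adjusted p = 0.00223), and by 0.89, under 2-fold, without the second seed coat array.

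In the auxin and cytokinin list, 1 of 12 tested genes was higher in the endosperm and 2 in the seed coat, a share of calls near the 18.9% of all tested probe sets. RR22, an atypical response regulator of cytokinin signalling, gave 411 and 905.2 in seed coat and 57.2 and 10.7 in endosperm (3.83 ± 0.56, adjusted p = 8.08e-05, and 4.56 or 3.1 without the first or second endosperm array), and GH3.9 was the other. RR16, of the type that damps the same signal, gave 1669 and 1910 in endosperm against 198.9 and 611 (2.29 ± 0.69, adjusted p = 0.0249), with adjusted p from 0.0926 to 0.23 without either endosperm array or the first seed coat array. GID1A, a gibberellin receptor, was the single call among 3 receptors, at 855.2 and 1659 in seed coat and 464.8 and 95.9 in endosperm (2.38 ± 0.58, adjusted p = 0.00669, and up to 0.134 without the second endosperm or seed coat array). GID1B and GID1C were not called. Among genes of ovule and integument identity, the cytochrome P450 CYP78A9 gave 58.2 and 16.4 in endosperm and 11.1 and 161.2 in seed coat and was not called (adjusted p = 0.753), and INO did not pass the filter on low signals.

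Among endosperm regulators and imprinted genes, EEL was the single call of 6 tested genes, a share near that of all tested probe sets (18.9%). EEL was also counted above as a peripheral endosperm marker. It gave 6501 and 8428 in endosperm and 685.5 and 1117 in seed coat (3.06 ± 0.35, adjusted p = 5.35e-06). IKU1, of the pathway that sets endosperm size, gave 243.8 and 383.5 against 512.7 and 354.9 (adjusted p = 0.642). IKU2, SHB1, AGL62, AGL28 and AGL61 did not pass the filter on low signals and were not tested. For the signalling between endosperm and embryo that builds the embryonic cuticle, the embryo receptor GSO1 gave 238.3 and 150.2 in endosperm and 3.93 and 142.1 in seed coat (adjusted p = 0.112). The receptor-like kinase ACR4 was higher in the seed coat, at 518.6 and 391.9 against 200.2 and 23.8 (2.33 ± 0.74, adjusted p = 0.0327), and was not called without the second endosperm array or either seed coat array (adjusted p up to 0.369).

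The called named genes with the strongest endosperm signal were mostly shared with other parts of the seed. Hsp70-2, a heat shock protein, gave 22294 and 32100 in endosperm and 13635 and 7583 in seed coat (1.39 ± 0.27, adjusted p = 0.0011), and fell under 2-fold (0.97) without the second seed coat array. GPDHp, the plastid glycerol-3-phosphate dehydrogenase that supplies glycerolipid synthesis, gave 24720 and 25653 against 8431 and 5944 (1.83 ± 0.26, adjusted p = 6.51e-05). ULT1, a SAND-domain protein that works with trithorax factors, gave 23353 and 25363 against 4934 and 3981 (2.45 ± 0.31, adjusted p = 1.51e-05). GH9C1 and scpl48 completed the 5. On the seed coat side GILT, UGT78D1, EXLA1 and TBL38 were joined by the mitochondrial complex I gene nad5, whose probe set can bind more than its own transcript. It gave 29060 and 41837 in seed coat and 14580 and 14036 in endosperm (1.28 ± 0.21, adjusted p = 0.000222), and 0.86, under 2-fold, with equal medians.

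Across the captured compartments fewer of the endosperm calls than of the seed coat calls had their highest mean in their own tissue of the pair. Of the 1324 probe sets higher in cellularized endosperm, 48.3% had their highest mean there, 22.6% in embryo proper, 14% in micropylar endosperm and 11.8% in chalazal endosperm. Of the 1689 higher in general seed coat, 62.5% peaked there and 22.4% in chalazal seed coat. More parts of the endosperm than of the seed coat were captured. No such share over all tested probe sets is at hand, so the unlike shares have no baseline. Among the other 4 compartments, micropylar endosperm was the highest for 37.2% of the endosperm calls and embryo proper for 36.2%, while chalazal seed coat was the highest for 62.3% of the seed coat calls. Over all tested probe sets these shares were 21.4%, 24.9% and 25.8%. For the 15 named endosperm genes, micropylar endosperm was the highest of the other 4 in 11 cases, and in GSTU18 and BGAL16 it exceeded cellularized endosperm, as embryo proper did in GPDHC1. For the 15 named seed coat genes, chalazal seed coat was the highest of the other 4 in 13 cases, and in LSH5, BRH1 and GH3.9 it exceeded general seed coat. SBTI1.1 averaged 10513 in micropylar endosperm, 916 in embryo, 151.8 in chalazal endosperm and 113.6 in chalazal seed coat. JMT averaged 2227 in chalazal seed coat, 138 in micropylar endosperm, 110.1 in chalazal endosperm and 15.9 in embryo.

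**Figure D4:**
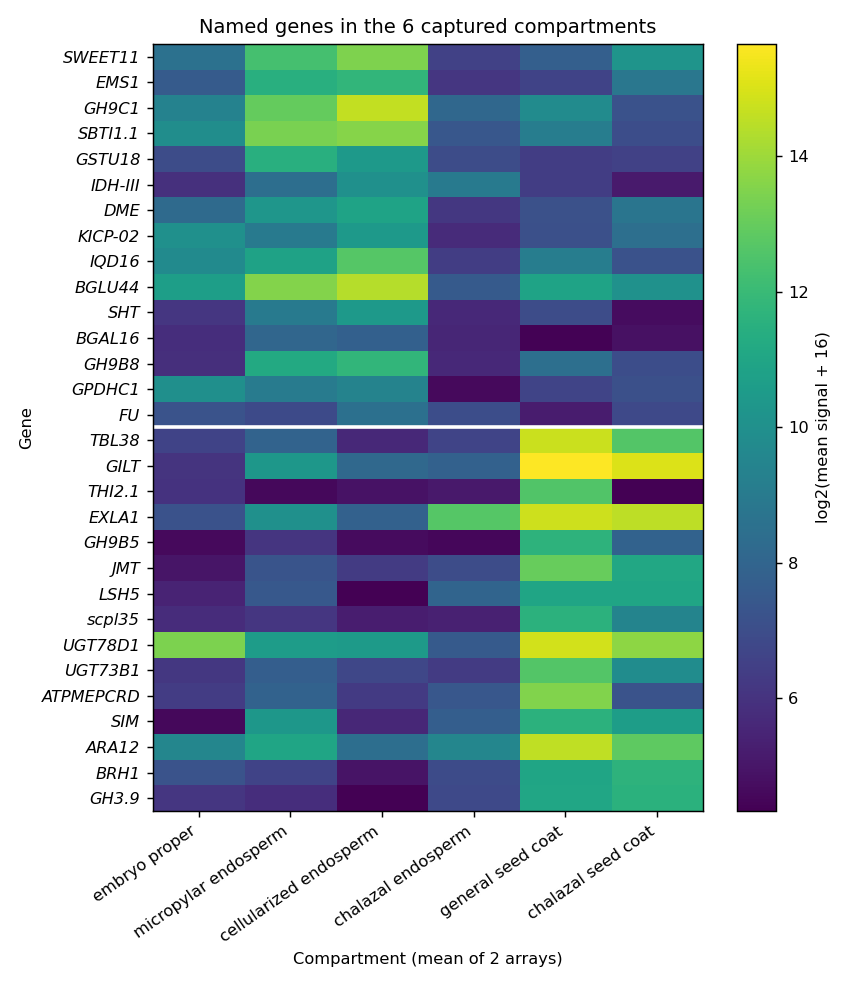
Mean signals of the same 30 genes in the 6 captured compartments, as log2(mean + 16) of 2 arrays each, from dark (low) to bright (high). Above the white line are genes higher in cellularized endosperm, mostly bright in micropylar endosperm too; below it are genes higher in general seed coat, most of them bright in chalazal seed coat, with THI2.1 and ATPMEPCRD dark there.

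The same contrast can be drawn at the chalazal end, where chalazal endosperm adjoins chalazal seed coat, on 4 arrays that this pair does not use. There 1923 probe sets were higher in chalazal endosperm (12.1%) and 2809 higher in chalazal seed coat (17.6%), a contrast added after the values had been seen. Chalazal endosperm markers summed to 7979 and 1103 in chalazal seed coat and 55172 and 57293 in chalazal endosperm. Seed coat markers summed to 2742 and 2624 in chalazal endosperm and 25947 and 25567 in chalazal seed coat. In cellularized endosperm they summed to 1365 and 1590, and in general seed coat to 56656 and 37946. The part of carry-over in either contrast was not tested. Of the calls higher in general seed coat, 791 (46.8%) were also higher in chalazal seed coat, which is 28.2% of the calls there, and 91 (5.39%) ran the opposite way. Of the calls higher in cellularized endosperm, 280 (21.1%) were also higher in chalazal endosperm, 14.6% of the calls there, and 220 (16.6%) were higher in chalazal seed coat instead. The difference between the 2 contrasts, tested as an interaction in the same fit, was called for 2811 probe sets (17.6%), with 1588 positive and 1223 negative.

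Among the 15 named seed coat genes, 13 were called in the same direction at the chalazal end and none in the opposite one. GILT was higher in chalazal seed coat by as much as in general seed coat, with a log2 difference at that end of -7.91 against -7.84 here (difference of the contrasts 0.07 ± 1.12, adjusted p = 0.974). THI2.1 and ATPMEPCRD were not called there, at means of 4.29 and 135.9 in chalazal seed coat and 19.1 and 154 in chalazal endosperm, and for both the 2 contrasts differed (-8.09 ± 1.19, adjusted p = 0.000177, and -6.43 ± 1.33, adjusted p = 0.00281). Among the 15 named endosperm genes, 1 was called in the same direction at the chalazal end, 6 in the opposite one and 8 not at all. The one was IDH-III, with 3.81 at that end against 3.89 here. The 6 were SWEET11, EMS1, DME, KICP-02, BGLU44 and GPDHC1. SWEET11 averaged 1146 in chalazal seed coat and 74.9 in chalazal endosperm, so its difference there was -4.21 (adjusted p = 0.000114) and the 2 contrasts were 9.93 ± 0.92 apart (adjusted p = 2.99e-06). DME averaged 406.1 and 56.4 in the same order on the probe set furthest apart here (-2.55, adjusted p = 0.000817).

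**Figure D5:**
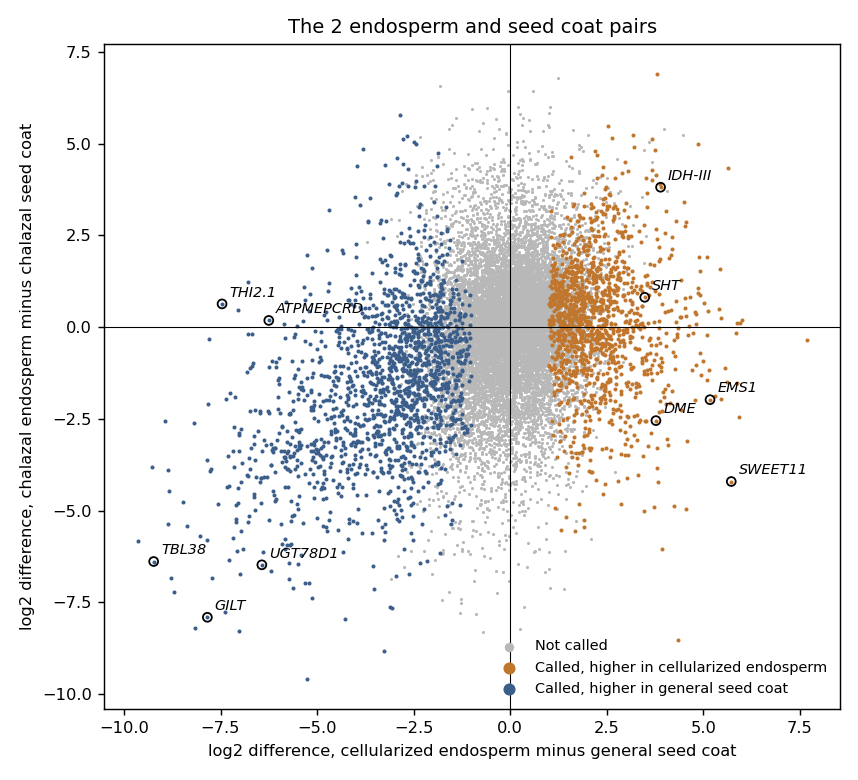
Each point is a tested probe set: the x axis is the log2 difference of cellularized endosperm minus general seed coat, the y axis that of chalazal endosperm minus chalazal seed coat. Orange and blue points were called in the x contrast, grey ones were not, and 10 named genes are circled. The blue points lean to the lower left, where GILT, TBL38 and UGT78D1 lie, while the orange points spread on both sides of 0, with IDH-III above and SWEET11, EMS1 and DME below.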

How the data were processed

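The file holds array intensity values that the authors deposited, 1 column per array, made with Affymetrix GCOS per the submitters' processing notes; no version is given in the sources used here. The 2% trimmed mean of each deposited column is 500, detection calls are not used here, and the genome build is not given in the sources used here, so no coordinates are printed. Of 22810 probe sets, 64 controls were left out; 13513 name 1 gene in the platform annotation, 503 several and 8794 none, and 1580 carry a symbol other than a locus code after matching to RefSeq (TAIR10.1 gene table). Groups follow the array titles. A probe set was tested if at least 2 of 14 arrays reached their array's median. limma 3.58.1 in R 4.3.3 was fitted to log2(intensity + 16) with 1 mean per group over all 14 arrays (7 residual degrees of freedom) and a mean-variance trend. The fit was tested on simulated data. Calls need a Benjamini-Hochberg adjusted p below 0.05, over all 15951 tested probe sets, and 2-fold. Named genes are, among calls whose arrays do not overlap and that carry a symbol, the 15 furthest toward each tissue, the 5 with the highest mean signal in each tissue, and members of the gene lists. Each list gene is represented by the probe set of highest mean signal. The members and lists were chosen with earlier results of these data known; 9 listed loci whose name the annotation did not bear out were left out. With 2 arrays per group, precision is limited by their number.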

Additional observations from a re-analysis of the deposited data

Results flagged for a closer look

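Each result here is a named gene whose endosperm and seed coat contrast differed, by the interaction test in the limma fit, between this pair and the chalazal pair. Values are the log2 difference of cellularized endosperm minus general seed coat, less that of chalazal endosperm minus chalazal seed coat; the chalazal pair was measured on other arrays. The genes were named for being far apart in this pair or for a high signal in it, which favours a larger difference here than at the chalazal end, so the differences are descriptions of these genes and their count is no result.
Toward the endosperm of this pair the difference was 9.93 for SWEET11 (adjusted p = 2.99e-06), 7.15 for EMS1 (9.69e-05), 6.53 for KICP-02 (0.000312), 6.32 for DME (1.08e-05), 6.07 for BGLU44 (3.21e-06) and 5.67 for GPDHC1 (0.00155). These 6 genes were higher in chalazal seed coat than in chalazal endosperm, the reverse of their order here. It was 4.87 for GH9B8 (0.000595), 4.81 for IQD16 (0.00142), 4.69 for GH9C1 (0.00462), 4.16 for SBTI1.1 (8.54e-05), 3.7 for GSTU18 (0.00454), 2.54 for ULT1 (0.000637) and 2.23 for GPDHp (0.000508). None of these 7 was called at the chalazal end.

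Toward the general seed coat the difference was -8.09 for THI2.1 (0.000177) and -6.43 for ATPMEPCRD (0.00281), neither called at the chalazal end. The other 7 were higher in the seed coat at both ends and further apart here: -5.2 for EXLA1 (1.49e-05), -3.65 for GH9B5 (0.0131), -3.44 for LSH5 (0.00892), -3.02 for UGT73B1 (0.0493), -2.85 for ARA12 (0.000212), -2.84 for TBL38 (0.0422) and -2.75 for JMT (0.0493). Seed coat markers summed to 2742 and 2624 in chalazal endosperm and 1365 and 1590 in cellularized endosperm. The part of carry-over between captures in these differences was not tested.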

How the results depend on the processing

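No named gene or list member changed direction past the threshold under any alternative run: other constants (1 and 64), no filter or a stricter one, equal medians, quantile normalization, no trend, a robust fit, fewer arrays, the replicate block, or 1 array left out. Over the named, listed and called family genes, 2897 values under an alternative stayed on their side of the threshold, 195 lost the call and 16 gained it. With equal medians, 2200 probe sets were higher in endosperm. With 1 array left out, all calls numbered 1840 to 2512, those higher in endosperm 737 to 1154, those higher in seed coat 1071 to 1358, and the difference of pairs 2021 to 2439; the lone array of a tissue is then assumed to vary like the other groups. Arrays of the same replicate number showed no strong shared shift. Over probe sets, deviations of same-numbered endosperm and seed coat arrays correlated at 0.029, and all group pairs lay between -0.081 and 0.101. These correlations cannot tell whether same-numbered samples shared plants, which the labels do not say. With the replicate block 1308 and 1678 probe sets were called. Signals below the added constant of 16 have no order, and detection calls are not used here.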

Other observations

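Gene families were also counted by the stem of their symbol, a grouping added after the values had been seen, so the counts are descriptions. They include genes that the lists hold too, such as scpl35, scpl20, scpl48, UGT78D1 and UGT73B1, and stand beside 8.3% of all tested probe sets higher in endosperm and 10.6% higher in seed coat. Of 27 families with at least 6 tested genes, 7 had 3 or more genes called in 1 direction. Among 18 serine carboxypeptidase-like genes 5 were higher in the seed coat and 3 in the endosperm, the latter scpl48, scpl50 and SCPL45. SCPL45 gave 4266 and 3755 in endosperm against 643.5 and 383.5 (log2 difference 2.97, adjusted p = 0.000466). Among 30 UDP-glycosyltransferases 5 were higher in the seed coat and 2 in the endosperm: UGT71C4, a flavonol glucosyltransferase, gave 3655 and 5237 in seed coat against 179.6 and 279, while UGT76E2 gave 10830 and 10045 in endosperm against 2057 and 1703 (log2 differences -4.19 and 2.47, adjusted p = 2.13e-05 and 0.00165). Of 8 aldehyde dehydrogenases 4 were higher in the seed coat and none in the endosperm. ALDH2C4, which makes ferulic and sinapic acid, gave 1528 and 2508 against 257.7 and 122.1 (-3.34, adjusted p = 0.00267). Of 8 autophagy genes 3 were higher in the seed coat, all of the ATG8 group that coats autophagosomes: ATG8H gave 738.5 and 1773 against 4.71 and 75.8 (-4.74, adjusted p = 0.00031).

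Of 11 beta-glucosidases 4 were higher in the endosperm and 2 in the seed coat, and of 12 genes with the stem CYP, which cyclophilins (CYP59 and CYP71) share with cytochromes P450, 3 were higher in the seed coat and 1 in the endosperm. Of the CYP genes higher in the seed coat, CYP71B29 was not tested when a seed coat array was left out. Its absence from a count there is no lost call. Of 7 rpl genes 3 were higher in the endosperm, all ribosomal protein genes of the plastid genome: rpl16 gave 7482 and 5627 against 3018 and 2212 (1.32, adjusted p = 0.0011), rpl32 differed by 1.17 (0.00744) and rpl22 by 1.12 (0.0215). Without the second seed coat array the counts were 4 and 3 for the carboxypeptidases (seed coat and endosperm), 4 and 2 for the glycosyltransferases, 3 for the aldehyde dehydrogenases, 2 for the autophagy genes, 2 for the beta-glucosidases toward the endosperm, 1 for the CYP genes toward the seed coat and 1 for the rpl genes. Without the first endosperm array the rpl count was also 1, and without the first seed coat array the autophagy count was 5 and the rpl count 5. The glycosyltransferases higher in endosperm numbered 1 without the second endosperm array or the first seed coat array, where UGT71B8 was not called.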
